A study of Arabidopsis thaliana with 4 samples.

Results

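AT3G45730 and AT5G62280 are the 2 Arabidopsis thaliana genes, of 9253 with a named probe, whose transcripts stood at least 2-fold from control in the same direction on all 4 arrays of a study of chromatin assembly and gamma-irradiation. AT3G45730 lay above control throughout and AT5G62280 below it. Both were chosen on these ratios, so their values are given as a description and without a test. The reference gene list names both as protein-coding loci, on chromosomes 3 and 5, and gives neither a symbol of its own; no role is stated here for either.

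The arrays compared plants of the ecotype Nossen, all 4 weeks old and, per the labels, grown on solid MS medium. The first array set the fas1-2 mutant, with a mutation in the p150 subunit of chromatin assembly factor 1 (CAF-1), against wild type, and the second set fas2-2, with a mutation in the p60 subunit, against wild type. The other arrays set wild type 6 h and 12 h after 100 Gy of gamma-rays, delivered at 300 Gy/h, against non-irradiated wild type. Each condition had 1 array with 2 dyes and no replicate. The tissue is rosette leaves in the sample labels and seedlings without roots in the design text. Each mutant is a single allele, and the labels do not say how many plants were pooled or whether arrays shared a control RNA.

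CAF-1 is the histone chaperone that deposits H3 and H4 behind the replication fork, and plants that lack it have altered chromatin and more DNA damage. Gamma-rays break DNA on both strands. In plants the kinases ATM and ATR pass such damage on to the transcription factor SOG1, which switches on genes of repair and of cell-cycle arrest.

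All values are ratios of red dye over green dye on the log2 scale, where 1 is 2-fold. The red dye carried the mutant or irradiated RNA on every array. The labels state neither the log base nor the sign of the deposited ratios, which were read as the scanner software writes them, so directions and fold sizes rest on that reading. A ratio carries no absolute level, so how strongly either gene was expressed, and whether the tissue held its defining transcripts, could not be read. Between repeated spots of 48 transcripts, the pooled SD of a log2 ratio was 0.236 on the fas1-2 array, 0.284 on the fas2-2 array, 0.25 at 6 h and 0.269 at 12 h. Each of the 2 genes had 1 probe and so no repeat of its own. Because the dyes were never swapped, an effect of the dye on a probe and an effect of the condition cannot be told apart in a ratio of 1 sign on all arrays; a constant dye effect cancels in a difference between arrays.

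AT3G45730 was the highest of all named genes after irradiation. Its log2 ratio was 4.62 at 6 h and 4.05 at 12 h, or 24.5-fold and 16.6-fold above non-irradiated wild type. The next genes in order were well below it, AT2G32140 at 3.29 at 6 h and AMS (AT2G16910), which regulates tapetum development in anthers, at 3.42 at 12 h. In the mutants AT3G45730 stood at 2.06 in fas1-2 and 1.33 in fas2-2, or 4.17-fold and 2.51-fold above wild type. There it ranked 17th from the top in fas1-2 and 74th in fas2-2, inside the upper tail and not apart from it. For comparison, genes at least 2-fold above control made up 1.58% of all named genes in fas1-2, 1.77% in fas2-2, 1.88% at 6 h and 0.908% at 12 h.

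AT5G62280 was below control by a similar amount on every array. Its log2 ratio was -1.32 in fas1-2 and -1.61 in fas2-2, which is 2.5-fold and 3.05-fold below wild type. After irradiation it was -1.26 at 6 h and -1.48 at 12 h, which is 2.39-fold and 2.79-fold below non-irradiated wild type. Counted from the lowest gene, it ranked 63rd in fas1-2, 33rd in fas2-2, 56th at 6 h and 28th at 12 h. It was therefore among the lowest genes everywhere and the lowest nowhere. Genes at least 2-fold below control made up 1.29% of all named genes in fas1-2, 1.34% in fas2-2, 1.01% at 6 h and 0.746% at 12 h.

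**Figure D1:**
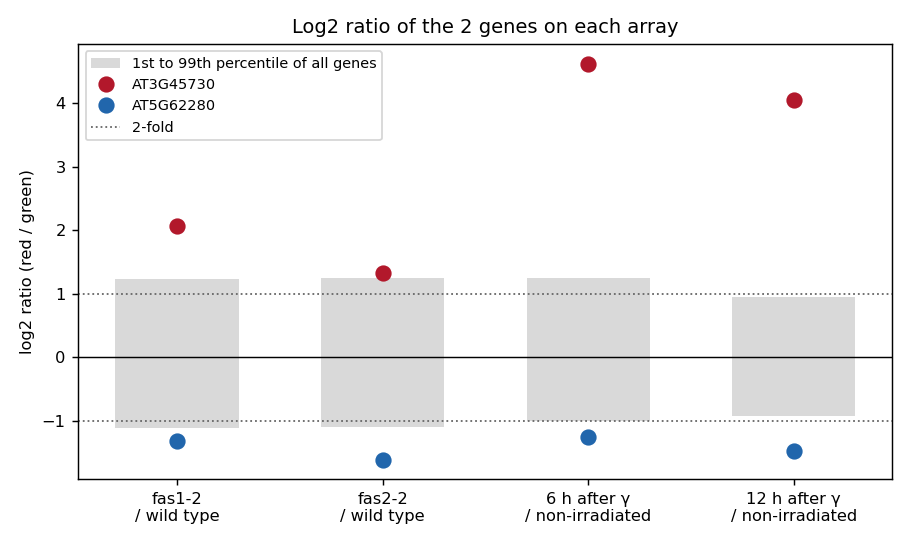
Log2 ratio of red over green (vertical axis) for AT3G45730 and AT5G62280 on the 4 arrays; grey bars span the 1st to the 99th percentile of all named genes and dotted lines mark 2-fold. AT3G45730 reaches 4.62 and 4.05 after irradiation and 2.06 and 1.33 in the mutants, while AT5G62280 stays between -1.61 and -1.26.

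**Figure D2:**
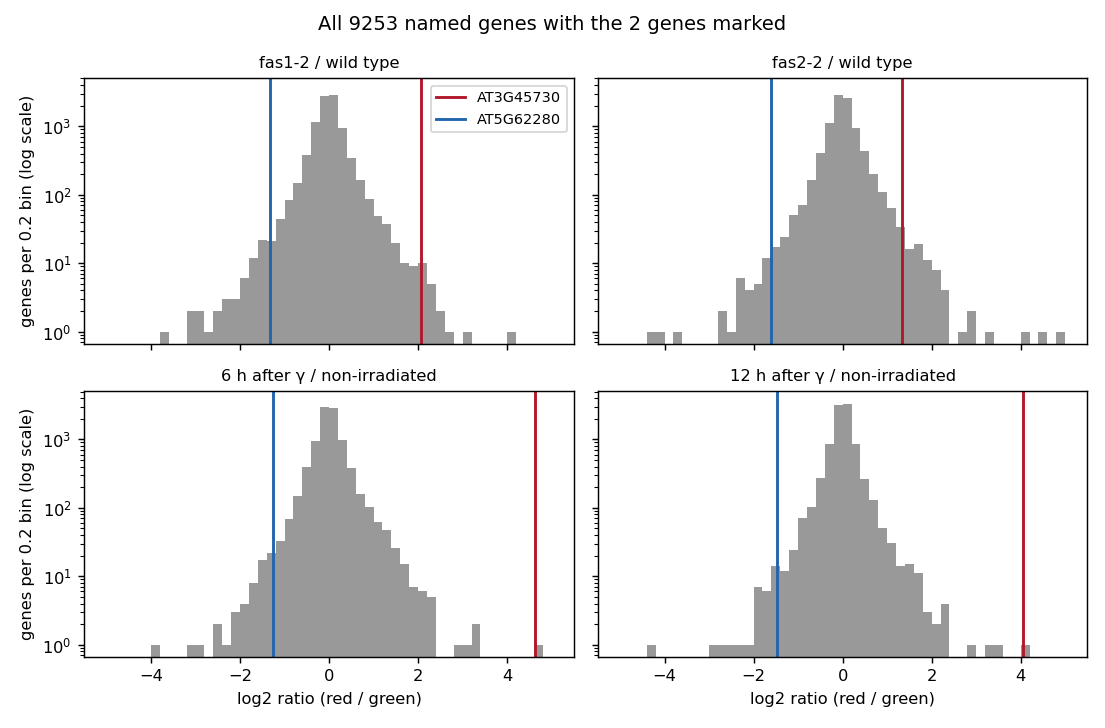
Number of named genes (vertical axis, log scale) by log2 ratio (horizontal axis) on each array, with the 2 genes as coloured lines. AT3G45730 is the highest gene in both lower panels, and AT5G62280 lies within the lower tail of all 4.

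The 2 genes differed in how far their ratio depended on the setting. For AT3G45730 the mean log2 ratio was 1.69 in the mutants and 4.34 after irradiation. The difference, mutants minus irradiated, was -2.64, or 6.24-fold, the ninth largest in size among named genes; the median size over all genes was 0.162. For AT5G62280 the means were -1.46 in the mutants and -1.37 after irradiation. Their difference was -0.10, and 34.7% of all genes had a smaller one. The ratio of AT5G62280 thus spanned 0.352 from its lowest to its highest array, and that of AT3G45730 spanned 3.29.

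Within a setting the arrays were closer for AT3G45730 than the means of the settings were. For AT5G62280 they were not, as both differences within a setting exceeded in size the -0.10 between its setting means. AT3G45730 was higher in fas1-2 than in fas2-2 by 0.73 on the log2 scale, a difference larger than that of 94.4% of all genes. At 12 h it stood at 4.05, against 4.62 at 6 h, a difference of -0.56 that was larger in size than that of 89.8% of genes. AT5G62280 was at -1.32 in fas1-2 and -1.61 in fas2-2, a difference of 0.29 (74.8% of genes differed less). It was at -1.48 at 12 h, against -1.26 at 6 h, a difference of -0.22 (67.8% of genes differed less). With 1 array a condition, none of these differences has a replicate error. The 2 genes were chosen for large ratios and the other genes were not. These shares, and the rank and share given above for the setting means, therefore do not compare genes of like size.

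Few other genes came near the 2-fold limit on all arrays. At least 2-fold higher on exactly 1 array were 369 genes, on exactly 2 arrays 87, on exactly 3 arrays 7 and on all 4 only AT3G45730 (0.0108% of genes). At least 2-fold lower were 257, 57 and 10 genes on exactly 1, 2 and 3 arrays, and only AT5G62280 on all 4 (0.0108%). Of the 17 genes at 3 arrays, 2 of the higher and 4 of the lower ones had the opposite sign on the remaining array. A single sign on all arrays, whatever the size, was found for 2740 of 9253 genes (29.6%), 1328 above 0 and 1412 below.

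Just inside the limit, the smallest log2 ratio in size was 1.33 for AT3G45730, in fas2-2, and 1.26 for AT5G62280, at 6 h. Just outside it, AT5G49500 was at 1.12 in fas1-2, 4.88 in fas2-2, 0.87 at 6 h and 1.06 at 12 h. AT2G37240 was at 0.84, 1.19, 2.22 and 1.58 in the same order. AT5G16640 followed at 0.78, 1.43, 0.86 and 1.2. The lower genes next in order were AT1G55220, which was nearly level at -0.79, -0.90, -0.76 and -0.85, and PSBW (AT2G30570), a small subunit of photosystem II, at -0.81, -0.90, -1.06 and -0.76. At a limit of 1.5-fold, 16 genes had 1 sign on all arrays, 7 higher and 9 lower. Among these 16, AT5G62280 had the third smallest spread over the arrays and AT3G45730 the second largest, after AT5G49500.

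**Figure D3:**
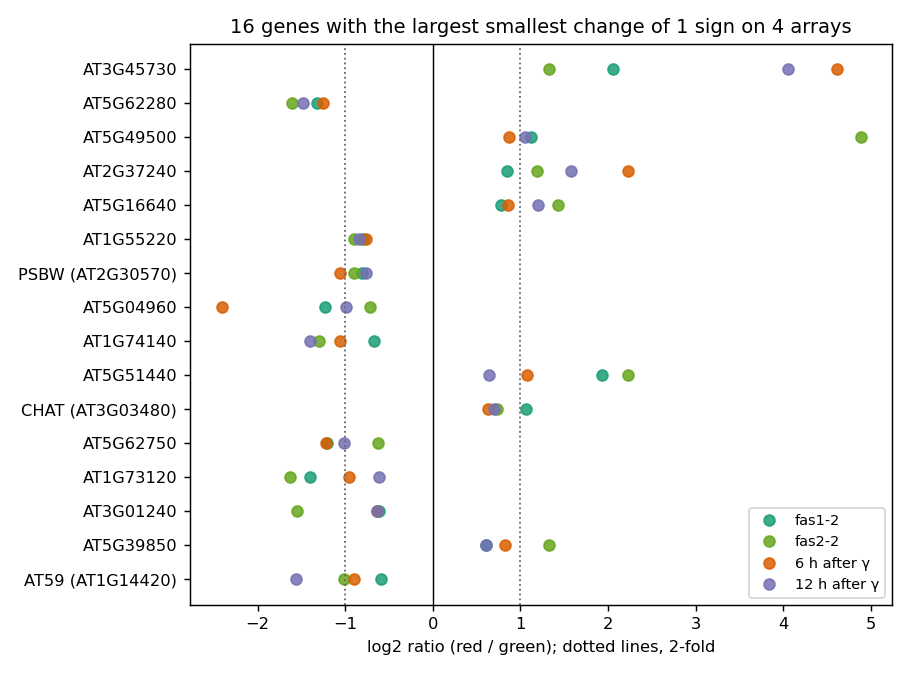
Log2 ratio (horizontal axis) on the 4 arrays for the 16 genes that keep 1 sign on all arrays and have the largest smallest value; dotted lines mark 2-fold. Only the points of AT3G45730 and AT5G62280 all lie beyond a dotted line, and AT5G49500 misses it at 6 h with 0.87.

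The genes around each locus did not share its ratio. Gene order was taken from the reference list, and the 5 nearest measured genes on each side were read. Around AT3G45730 no neighbour exceeded 0.508 in size on any array, and the medians of the 10 neighbours were 0.02 in both mutants, -0.02 at 6 h and -0.06 at 12 h. The next locus, AT3G45740, was at 0.02 in fas1-2, -0.16 in fas2-2, -0.51 at 6 h and -0.18 at 12 h. On the other side the nearest measured gene was AT3G45710, at 0.03, -0.01, 0.04 and 0.06 on the same arrays. Farther out on that side, 13 loci away, lies NAXT1 (AT3G45650), a transporter that releases nitrate, at 0.14, 0.16, -0.01 and 0.11.

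Around AT5G62280 the neighbours were more scattered, and none reached 2-fold. Their medians were -0.19 in fas1-2, -0.13 in fas2-2, -0.17 at 6 h and -0.03 at 12 h. The next locus, AT5G62290, was at -0.23, -0.25, 0.00 and 0.14. The lowest single value belonged to TRM25 (AT5G62170), named for a motif that recruits the TON1 protein of the plant cytoskeleton, at -0.94 at 6 h, with -0.14 in fas1-2, -0.36 in fas2-2 and -0.27 at 12 h. AT5G62360 was at -0.60, -0.47, -0.82 and -0.34. These 2 of the 10 neighbours were below 0 on all 4 arrays, as were 1412 of all 9253 genes (15.3%).

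**Figure D4:**
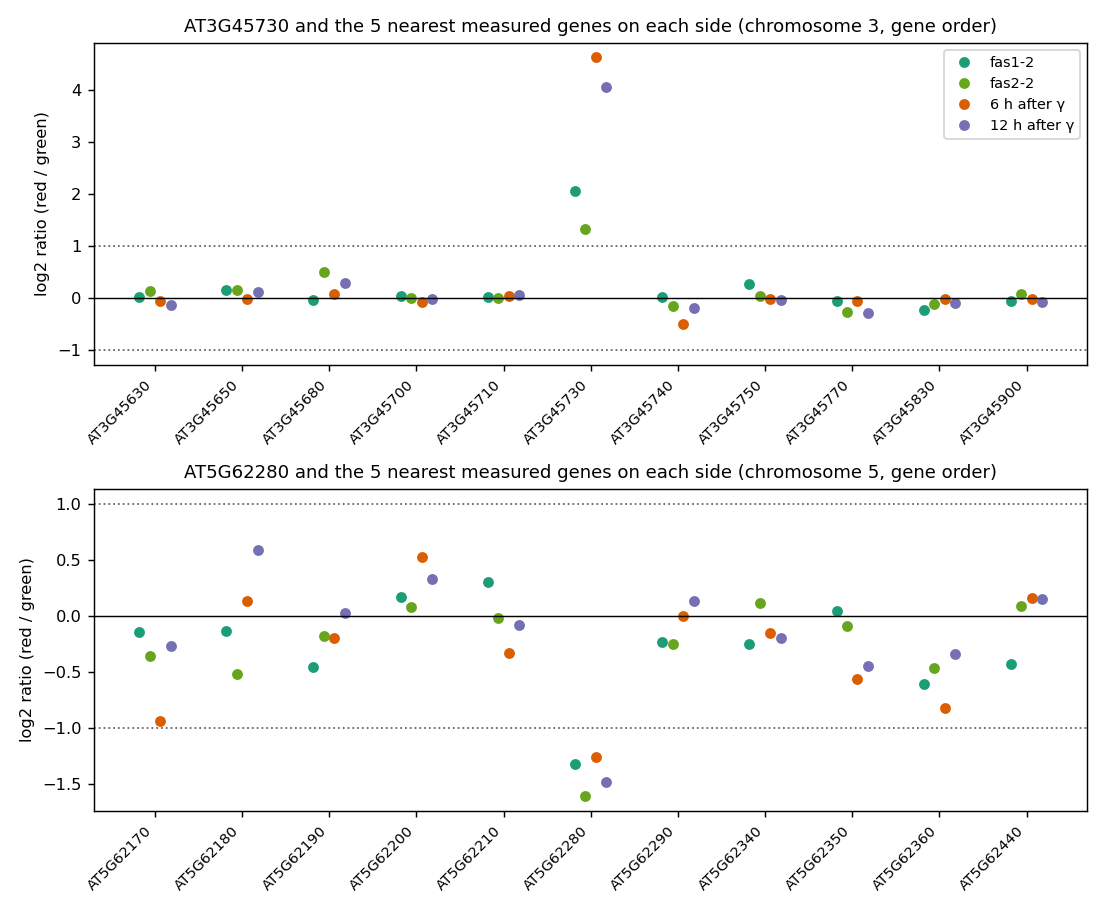
Log2 ratio (vertical axis) on the 4 arrays for each gene and its 5 nearest measured neighbours on each side, in reference gene order (horizontal axis, not to distance); dotted lines mark 2-fold. The neighbours of AT3G45730 stay within 0.508 of 0, and those of AT5G62280 within 0.937.

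Features numbered next to the 2 probes on the array did not share their ratios either. The 10 features numbered next to the AT3G45730 probe had medians of 0.00 in fas1-2, 0.01 in fas2-2, -0.05 at 6 h and -0.01 at 12 h, and the largest in size was 1.22, below 0, in fas2-2. Those next to the AT5G62280 probe had medians of -0.03, -0.08, -0.06 and -0.04, and none exceeded 0.571 in size.

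Genes of a similar pattern were looked for over the 4 arrays, by Euclidean distance between log2 ratios and by cosine similarity, which compares the shape of the pattern and not its size. No named gene came close to AT3G45730 by distance. The nearest, AT2G37240, was 3.65 log2 units away, followed by AT1G51130 at 3.76, AT2G21640 at 4.00, AT2G32140 at 4.09 and AT1G10050, which the reference list also calls ATXYN2, at 4.11. AT1G51130 stood at 2.37 at 6 h and 2.14 at 12 h but at only -0.13 in fas1-2 and 0.53 in fas2-2.

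Cosines were taken over the 742 other genes that were at least 2-fold from control on 1 or more arrays. By shape, AT3G45730 was most like AT1G20120, with a cosine of 0.994 over 4 arrays. AT1G20120 stood at 0.40 in fas1-2, 0.42 in fas2-2, 1.39 at 6 h and 1.16 at 12 h, and its pattern had 28.7% of the length of that of AT3G45730. AT5G67460 (0.986), AT3G44620 (0.986), AT5G07790 (0.983) and the IQ-domain gene IQD23 (AT5G62070; 0.983) came next. All 5 were above control on all 4 arrays and higher after irradiation than in the mutants, as a high cosine with AT3G45730 requires. With 4 points and a filter on size, the measure describes the arrays and no more.

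By distance, which grows with the size of a pattern, named genes lay nearer to AT5G62280 than to AT3G45730. The gene nearest to AT5G62280 was AT1G74140 at a distance of 0.754, with log2 ratios of -0.67 in fas1-2, -1.30 in fas2-2, -1.06 at 6 h and -1.40 at 12 h. AT1G73120 was at 0.914, the cytochrome P450 gene CYP71B22 (AT3G26200) at 0.985, the pectate lyase gene AT59 (AT1G14420) at 1.0 and AT5G62750 at 1.09. By shape the most alike were PSBW (cosine 0.982), the myosin gene XIJ (AT3G58160; 0.981), AT1G74140 (0.98), AT5G47690 (0.979) and MSRB6 (AT4G04840; 0.958), a methionine sulfoxide reductase. These cosines were all below those of the genes listed for AT3G45730, of which the lowest was 0.983. XIJ was at -0.48, -1.02, -0.57 and -0.76 over the arrays in the same order.

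The array also holds 13200 features with no gene name in the annotation used here, and some of these lay nearer to the 2 genes than any named gene did. These features were looked up after the values of the 2 genes had been seen. The feature numbered 12518 stood at 2.02 in fas1-2, 1.46 in fas2-2, 4.55 at 6 h and 4.09 at 12 h. It was within 0.13 of AT3G45730 on every array, less than the SD between repeated spots. Feature 3536 was at 1.11, 2.03, 4.35 and 3.62, and feature 15293 at 0.64, 0.99, 4.82 and 3.99. For AT5G62280 the nearest was feature 22293 at -1.07, -1.54, -1.65 and -1.30, at a distance of 0.509. Whether any of these features measures a transcript related to either gene was not tested.

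**Figure D5:**
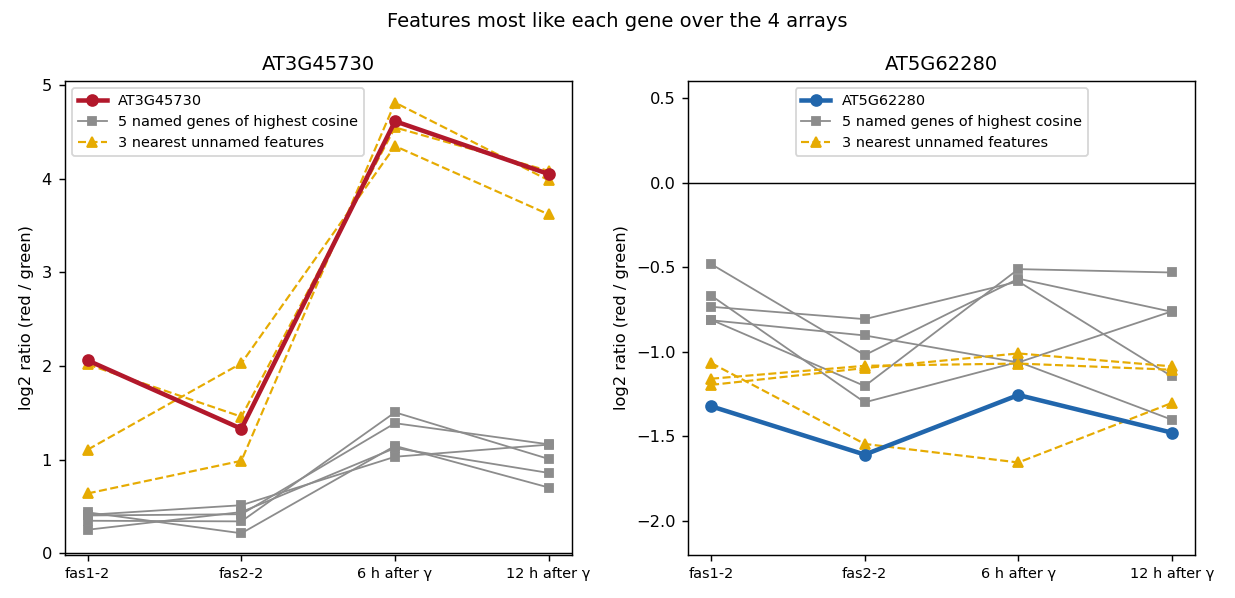
Log2 ratio (vertical axis) on the 4 arrays for AT3G45730 (left) and AT5G62280 (right), each with the 5 named genes of highest cosine similarity in grey and the 3 nearest unnamed features in yellow. Feature 12518 nearly overlies AT3G45730, while the named genes of like shape reach 1.5 at most.

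The pathway around damage signalling was hardly covered by named probes. A listed gene is called measured here if it had a uniquely named probe. Whether unnamed features measure the others was not tested. Of 28 listed genes of the damage response, among them the SMR inhibitors of the cell cycle, ATM, ATR and SOG1, 0 had a uniquely named probe, so the ratios of the 2 genes could not be set beside them. Of 18 listed repair genes 2 were measured. LIG4 (AT5G57160), which seals breaks in end joining, was at -0.22 in fas1-2, -0.28 in fas2-2, 0.48 at 6 h and 0.28 at 12 h. TOP3A (AT5G63920), a topoisomerase that resolves recombination intermediates, was at 0.13, 0.24, 0.23 and 0.43.

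Neither repair gene passed in limma, which tested the mean of the mutant arrays and the mean of the irradiated arrays against 0 over all 9253 genes. For LIG4 the adjusted p was 0.216 in the mutants and 0.249 after irradiation, and for TOP3A it was 0.306 and 0.265. In limma 0.0757% of all genes were called higher and 0.0432% lower in the mutants, and 0 were called after irradiation, where 1354 genes had an unadjusted p under 0.05. These calls use the spread between unlike conditions, and the 11 in the mutants were lost without any 1 of the 4 arrays, with a count of 0 each time.

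Of 15 listed genes of auxin response and elongation growth, 4 were measured. EXPA8 (AT2G40610), an expansin that loosens cell walls, was at -0.20 in fas1-2, -0.74 in fas2-2, -1.55 at 6 h and -0.99 at 12 h, below 0 on every array like AT5G62280. The other 3 were not, and 15.3% of all genes were. HAT2 (AT5G47370), an auxin-induced homeobox gene, was at -0.22, -0.30, -0.19 and 0.13. IAA29 (AT4G32280), a repressor of auxin signalling, was at -0.29, -0.51, 0.19 and -0.36, and GH3.3 (AT2G23170), which conjugates auxin to amino acids, was at -0.04, 0.05, -0.04 and -0.10. By limma 0 of the 4 passed in either setting, which does not set them apart from all genes, of which 11 of 9253 were called in the mutants and 0 after irradiation (1934 and 1354 at an unadjusted p under 0.05).

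Markers of other organs and of leaf were measured in part, and by limma 0 of them passed in either setting, as for nearly all genes. Of 6 anther and tapetum genes 3 were measured. AMS stood at -1.54 in fas1-2, 0.00 in fas2-2, 1.73 at 6 h and 3.42 at 12 h (adjusted p of 0.496 in the mutants and 0.258 after irradiation in limma). Its value in fas2-2 was exactly 0, among the exact zeros that were kept, and it enters these tests. ATA27 (AT1G75940) was at -0.62, -1.27, -0.37 and 2.83, and A9 (AT5G07230) was at 0.08, 0.03, -0.02 and 0.09. Of 8 root genes 2 were measured, and PYK10 (AT3G09260), a beta-glucosidase, was at 0.34, 1.0, -0.40 and 0.03, while EXPA7 (AT1G12560), an expansin of root hairs, was at -0.03, 0.73, -0.23 and 0.13. Of 7 leaf genes 2 were measured, PSBW as given above and RCA (AT2G39730), the activase of Rubisco, at -0.05, -0.20, -0.49 and -0.17. The part of tissue makeup in the ratios of AT3G45730 and AT5G62280 was not tested.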

How the data were processed

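Each of the 4 arrays has a deposited log ratio, read here as log10, for every 1 of its 22575 features. Agilent Feature Extraction is the tool named in the submitters' processing notes, and its version, background correction and dye normalization are not given in the sources used here. The ratios ran from -1.80 to 1.66, with a median near 0 on every array (log2 -0.0048 to -0.0015), so they arrived centred. No spot intensity was used, so neither background nor saturation was judged, and exact zeros (131 to 245 per array) were kept. Multiplication by 3.32 turned log10 into log2 ratios. In the array annotation, dated 2007, 9335 features carried 1 gene name, 40 had several and 13200 had none. By gene identifier 9317 of the 9335 matched the reference list (assembly TAIR10.1), used for names and gene order only, and 18 stayed under the array's own name. Where a gene had several probes (79 of 9253 genes), their mean was taken. No pair of arrays correlated below 0 over genes (Pearson r of 0.0395 to 0.523). These correlations cannot show whether the assumed sign is right, since they stay the same if it is reversed on all arrays.

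Listed genes were tested with limma 3.58.1 in R 4.3.3 (lmFit, eBayes, a mean per setting over all 4 arrays, Benjamini-Hochberg over 9253 genes, threshold 0.05). The fit has 2 residual degrees of freedom. Nothing in the labels says that the RNAs came from separate cultures, so p-values measure only the spread between these arrays. The 2 genes were not tested. Named genes are both of these, the 5 most alike by each measure, the 5 nearest on each side, those next in order on the rule, and measured list members. Members and lists were chosen with earlier results of these data known. Promoter and protein sequences were not used here, so the planned motif and protein searches were not made, and the mutated CAF-1 genes were not analysed here.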

Additional observations from a re-analysis of the deposited data

Results flagged for a closer look

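Among features outside the gene comparisons, 482 of the 13200 with no gene name passed the 2-fold limit with 1 sign on every array, or 3.65%, against 0.0216% of named genes. They were singled out because the signal lies in features that the comparisons leave out. Of the 482, 475 were lower and 7 higher. The mean log2 ratio of the lower ones had a median of -3.12 with quartiles of -3.38 and -2.85, and 471 of them had a mean of -2 or less, as did 1 named gene. Of the 474 steps in feature number from one of these to the next, 238 were exactly 7. The mean of AT5G62280, -1.42, lies above or at that of 471 of the 475 lower features, so AT5G62280 does not share the level of most of them. Feature 22293, given above as the nearest to AT5G62280, is also 1 of the 475. The 7 higher features ranged from 1.04 to 4.55 on single arrays, and 1 of them, feature 12518, had a mean at or above the 3.01 of AT3G45730. What the unnamed features measure was not tested.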

How the results depend on the processing

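The log2 ratios of the 2 genes kept their sign under all alternatives run, and 14 of 16 recomputed values moved by less than the SD between repeated spots. Scaling each array to a common spread moved the 12 h values to 4.84 for AT3G45730 and -1.76 for AT5G62280. Ranked among all features instead of named genes, AT3G45730 was 44th in fas1-2, 213th in fas2-2, 3rd at 6 h and 2nd at 12 h. AT5G62280, counted from the lowest, was 616th, 558th, 608th and 567th on the same arrays. Its ranks count the 475 unnamed features lower on every array, of which 471 had a mean at or below its own. The genes past the limit on all arrays stayed at 2 with centring or scaling and numbered 16 at 1.5-fold and 0 at 3-fold. Over all features 484 passed it, of which 482 had no gene name. Without any 1 array the genes past the limit numbered 4 to 8. The 2 genes are among them by their choice. Limma called 11 genes in the mutants, 0 with centring (smallest adjusted p 0.0514) or scaling (0.0693), 756 over all features and 0 without any 1 array. After irradiation it called 0 in the main fit, 0 with centring or scaling and 624 over all features. Of the calls over all features, 600 in the mutants and 512 after irradiation were lower. The unnamed features that were lower on every array, described above, were among those tested. The planned counts of damage response genes were not run, because none had a uniquely named probe. Precision is limited by the number of arrays. No paired analysis was possible because each condition has 1 array and no replicate number.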
